A study of Mus musculus with 14 samples.

Results

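CC chemokines are small secreted proteins, and 10 of their mouse genes are described here in the colon: Ccl2, Ccl3, Ccl4, Ccl5, Ccl7, Ccl8, Ccl11, Ccl20, Ccl25 and Ccl28. The genes were chosen by name, with earlier results of these data known. Every array probe whose RefSeq accession maps to one of them was taken. This gave 12 probes for 10 genes, of 41174 probes and 19096 named genes on the array. Ccl7 and Ccl25 each have 2 probes, and a gene's values are those of its brightest probe unless the other one is named.

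These arrays compare the response to a glucocorticoid in colons with and without the glucocorticoid receptor (GR) of the intestinal epithelium. Total RNA of 14 colons was hybridised to 14 1-colour arrays in 4 groups. All mice were C57BL/6 males on a chow diet whose adrenal glands had been removed (ADX) 2 weeks earlier, and colons were taken 6 hours after an injection. Flox mice carry floxed alleles of the GR gene Nr3c1, and GR iKO mice carry the same alleles together with Villin-cre, which deletes the gene in intestinal epithelium, so that other cells of the colon keep it. There were 4 Flox mice given PBS (Flox PBS 1 to 4), 3 Flox mice given the synthetic glucocorticoid dexamethasone (DEX) at 1 mg/kg (Flox DEX 1, 2 and 4), 3 GR iKO mice given PBS (GR iKO PBS 2, 3 and 4) and 4 GR iKO mice given DEX at 1 mg/kg (GR iKO DEX 1 to 4). The labels put the mice at 6 to 8 weeks of age for ADX and at 8 to 10 weeks in a second entry, while the study's methods give an older age. The treatment text of the labels speaks of DEX for every sample, so PBS was read from the sample titles.

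CC chemokines bind G protein-coupled receptors on leukocytes and direct their movement into tissue. In the gut, Ccl2 and Ccl7 draw monocytes from blood through Ccr2, Ccl11 draws eosinophils through Ccr3, and Ccl20, Ccl25 and Ccl28 are made by epithelium and attract lymphocytes and dendritic cells through Ccr6, Ccr9 and Ccr10. Glucocorticoids are known to lower the transcripts of many inflammatory chemokines, in part through proteins of the NF-kB pathway.

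Values are levels on a log2 scale, as the log2 signal of a probe minus the 75th percentile of its array, so that 0 is the 75th percentile and a step of 1 is a doubling. A difference between groups is a log2 fold change from limma over all probes, and it was called when the adjusted p was under 0.05 and the change at least 2-fold. The 4 groups were hybridised on 4 slides and read in 4 scans, 1 slide and scan to each group, and in every comparison the slide cannot be told apart from the treatment or genotype. Between 28284 and 30504 of the 41174 probes were well above background on an array. Because these are bulk samples, fewer cells of a type and less RNA per cell cannot be told apart.

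The deleted gene itself was lower in GR iKO colon. Nr3c1, by the brightest of its 4 probes, had levels of 1.40, 1.48, 1.46 and 1.28 in Flox PBS 1 to 4 and of 1.13, 1.13 and 1.34 in Flox DEX 1, 2 and 4. Levels in GR iKO colon were 0.79, 0.44 and 0.28 in PBS 2, 3 and 4 and -0.14, -0.08, 0.04 and 0.00 in DEX 1 to 4. Every GR iKO array lay below every Flox array. The log2 difference between genotypes was -0.90 under PBS (adjusted p = 0.0162), short of 2-fold and called with no fold minimum or without GR iKO PBS 2, where it was -1.04, and -1.24 under DEX (adjusted p = 0.00319), which was called. The call under DEX was lost with normexp background correction (-0.98, adjusted p = 0.105), with the mean of the Nr3c1 probes (-0.99, adjusted p = 0.0365), by the methods' t-test after adjustment (adjusted p = 0.0961) and without the arrays high in pancreas markers (-1.39, adjusted p = 0.108). Of the 3 dimmer probes, 2 gave differences of -1.14 (adjusted p = 0.0183, called) and -0.86 (adjusted p = 0.0284, short of 2-fold) under PBS and of -1.27 and -1.10 under DEX (adjusted p = 0.00866 and 0.00662), both called. The dimmest probe gave -1.07 under PBS and -0.35 under DEX, neither of them called, with GR iKO DEX 2 at a level of -2.54 and the other arrays of that group between -5.18 and -4.71. Whether these probes lie within the deleted stretch is not known.

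Known targets of glucocorticoids were read first. Fkbp5, which encodes a GR chaperone and is a standard target of the receptor, rose by 3.65 on the log2 scale in Flox mice (adjusted p = 0.000686), and its log2 difference was 0.94 in GR iKO mice (adjusted p = 0.0892). The difference between those responses was -2.71 (adjusted p = 0.0436), although it was called in 3 of the 14 fits that left out 1 array, those without Flox DEX 4, Flox PBS 1 or GR iKO PBS 3, and its adjusted p went up to 0.103. Over all 27 alternatives that call was lost in 19. Tsc22d3, the gene of the glucocorticoid-induced protein GILZ, rose in both, by 1.91 with Flox (adjusted p = 0.000686) and 1.61 with GR iKO (adjusted p = 0.000865). Of 7 glucocorticoid-induced genes on the array (8 listed, without Zbtb16), 4 were called higher in Flox mice (Sgk1, Fkbp5, Tsc22d3 and Pdk4) and 2 in GR iKO mice (Tsc22d3 and Pdk4), with medians of 1.91 and 0.88.

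Ccl2, also called MCP-1, is the main attractant of monocytes that carry Ccr2. Its levels in Flox mice were -2.13, -0.33, -0.53 and -1.49 in PBS 1 to 4 and -4.44, -4.16 and -4.17 in DEX 1, 2 and 4. For GR iKO the levels were -1.10, -1.94 and -1.99 in PBS 2, 3 and 4 and -4.0, -4.21, -3.90 and -3.76 in DEX 1 to 4. All 7 DEX arrays lay below all 7 PBS arrays, with the lowest PBS array, Flox PBS 1, still well above the highest DEX array. The group means were -1.12 ± 0.84 (SD, n = 4) in Flox PBS, -4.26 ± 0.16 (SD, n = 3) in Flox DEX, -1.68 ± 0.50 (SD, n = 3) in GR iKO PBS and -3.97 ± 0.19 (SD, n = 4) in GR iKO DEX. Spread among animals was wider without DEX than with it in both genotypes. Ccl2 fell by 3.14 on the log2 scale in Flox mice (SE 0.38, 95% interval -3.96 to -2.32, adjusted p = 0.00264), which is 8.79-fold. The fall with GR iKO was also called: Ccl2 fell by 2.29 (SE 0.38, 95% interval -3.11 to -1.47, adjusted p = 0.00442), which is 4.89-fold.

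Ccl7, or MCP-3, attracts monocytes as well and shares Ccr2 with Ccl2. Its levels in Flox mice were -1.83, -0.82, -0.80 and -1.25 in PBS 1 to 4 and -5.07, -4.91 and -4.36 in DEX 1, 2 and 4. Levels in GR iKO mice were -1.41, -2.05 and -2.38 in PBS 2, 3 and 4 and -3.90, -4.87, -3.98 and -4.47 in DEX 1 to 4. As for Ccl2, every DEX array lay below every PBS array. Ccl7 fell by 3.61 in Flox mice (SE 0.33, 95% interval -4.32 to -2.89, adjusted p = 0.000686), which is 12.2-fold. With GR iKO it fell by 2.36 (SE 0.33, 95% interval -3.07 to -1.65, adjusted p = 0.00235), which is 5.13-fold. The dimmer Ccl7 probe fell by 3.16 with Flox (adjusted p = 0.000752) and 1.91 with GR iKO (adjusted p = 0.00379). The probes of Ccl7 lie in different regions of the array, the brighter one past grid row 355 of 532 and the dimmer one in the first of 3 regions, and both were called in both genotypes.

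**Figure D1:**
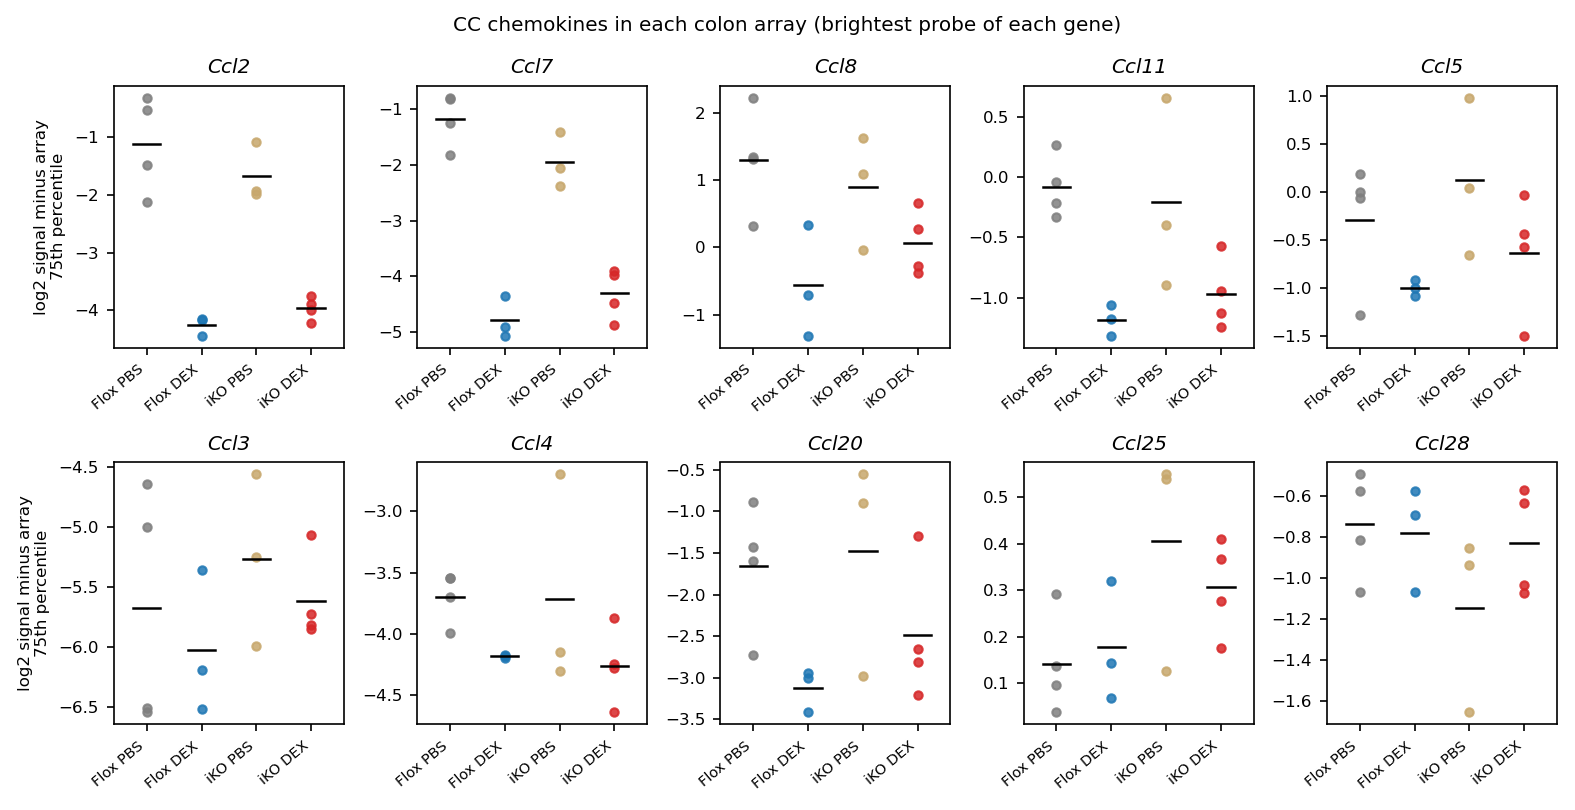
Levels of the 10 CC chemokine genes in each of 14 colon arrays, as log2 signal minus the array's 75th percentile (vertical axes differ between panels). Points are arrays and bars are group means, and for Ccl2 and Ccl7 the 7 DEX arrays lie below all PBS arrays of both genotypes.

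Ccl2 and Ccl7 were the only members called in a DEX comparison. In Flox mice 2 of 10 members were called lower and 0 higher, against 0.787% of all probes called lower, 0.782% called higher and 1.57% called in either direction (3.17% at an adjusted p under 0.05 with no fold minimum). With GR iKO 2 of 10 were called lower and 0 higher, against 0.823% lower, 4.19% higher and 5.01% in either direction (11.7% with no fold minimum). The median log2 difference of the 10 members was -0.91 for Flox and -0.76 for GR iKO, beside 0.04 and 0.04 over all genes. The groups did not overlap, with DEX lower, for 5 of 10 members in Flox mice (Ccl2, Ccl4, Ccl7, Ccl11 and Ccl20), against 8.11% of all probes in that direction and 20.2% in either, and for 2 of 10 with GR iKO (Ccl2 and Ccl7), against 8.34% and 25.6%. An unadjusted p under 0.05 was reached by 5 members in Flox mice and by 3 in GR iKO mice, and by 7823 of 41173 and 11397 of 41174 probes. Of 10 members, 9 had a log2 difference below 0 in each genotype. Alternatives changed the sign of Ccl3, Ccl4, Ccl25 and Ccl28 in Flox mice, among them normexp background correction, with Ccl3, Ccl4 and Ccl28 at 0.69, 0.46 and 0.02, and median scaling, with Ccl25 at -0.04. They changed the sign of Ccl3 in GR iKO mice with normexp (0.18) or without GR iKO PBS 2 (0.00). The sign of Ccl20 changed there without the arrays high in B cell markers (0.09), a fit that leaves GR iKO PBS 2 as the only GR iKO PBS array. Both comparisons draw on separate animals, but each group's slide is its own.

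The calls of Ccl2 and Ccl7 were kept in both genotypes in all 14 fits that left out 1 array. They were lost in Flox and GR iKO mice with normexp background correction, where the log2 differences of Ccl2 were -1.19 (adjusted p = 0.2) and -1.25 (adjusted p = 0.401) and those of Ccl7 were -1.16 (adjusted p = 0.2) and -1.12 (adjusted p = 0.456), while the median of all probes moved to 0.56 and 0.18. Over all alternatives the adjusted p of Ccl2 ranged from 0.000627 to 0.206 in Flox mice and from 0.000365 to 0.401 in GR iKO mice, and that of Ccl7 from 0.000128 to 0.2 and from 0.00119 to 0.456. With the methods' t-test, which they give for small samples in general and not for these arrays, 0 of 10 members and 0 probes were called in Flox mice after Benjamini-Hochberg adjustment, and Ccl2 and Ccl7 were called in GR iKO mice. Each gene named here whose call in Flox mice was tested under the alternatives lost it by the methods' t-test after adjustment and without the arrays high in pancreas markers. With normexp the calls kept were those of Fkbp5, Tsc22d3, Sgk1, Ccl21a and Lct in Flox mice and of Tsc22d3 and Lct in GR iKO mice.

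The difference between the DEX responses of the genotypes was tested directly. For Ccl7 the log2 difference of responses, GR iKO minus Flox, was 1.25 (95% interval 0.24 to 2.25, adjusted p = 0.296), and the dimmer probe also gave 1.25 (95% interval 0.33 to 2.18, adjusted p = 0.247). For Ccl2 the value was 0.85 (95% interval -0.31 to 2.01, adjusted p = 0.587), and for Ccl8 it was 1.04 (95% interval -0.55 to 2.64, adjusted p = 0.636), with 0.67 without Flox DEX 4 and 0.58 without GR iKO PBS 3. With normexp background correction the value was 0.04 for Ccl7 and -0.06 for Ccl2. In limma 0 of 10 members were called, against 0.221% of all probes (0.182% higher, 0.0389% lower, and 0.253% with no fold minimum), with 1 member and 4977 probes at an unadjusted p under 0.05. The members' median was 0.35 beside 0.00 over all genes. These data therefore do not show a member whose response depends on epithelial GR, and the intervals for Ccl2 and Ccl7 leave room for a response more than 2-fold larger in Flox mice.

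**Figure D2:**
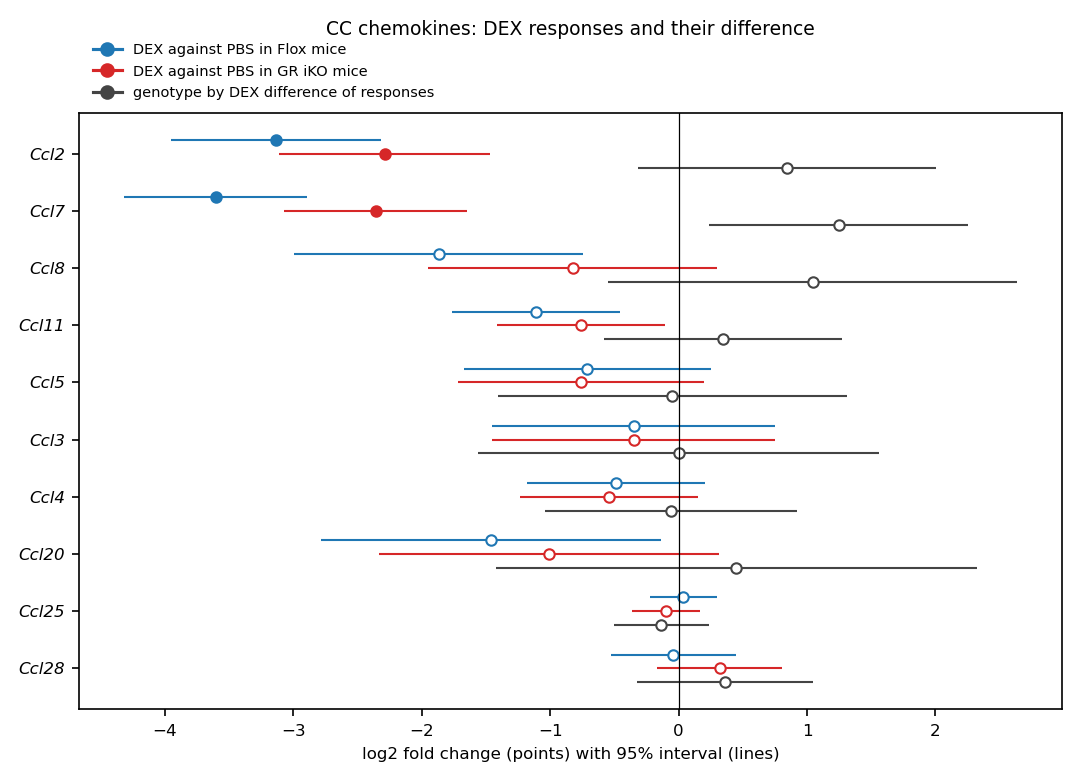
Log2 fold changes of the 10 CC chemokine genes for DEX against PBS in Flox mice, for DEX against PBS in GR iKO mice and for the difference of these responses. Points are estimates, lines are 95% intervals and filled points are called, which holds for Ccl2 and Ccl7 in both genotypes.

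Genotype without regard to the DEX response was compared in both treatments. Under PBS, 0 of 10 members were called in limma, against 0.134% of all probes (0.0656% higher, 0.068% lower, and 0.16% with no fold minimum), with 2 members (Ccl7 and Ccl25) and 3207 probes at an unadjusted p under 0.05 and 0 members and 0 probes called by the methods' t-test after adjustment. The difference of Ccl7 was -0.77 (95% interval -1.49 to -0.06, adjusted p = 0.585), and that of Ccl25 was 0.26 (95% interval 0.00 to 0.53, adjusted p = 0.636), or 0.40 without GR iKO PBS 4. Under DEX, 0 of 10 members were called in limma, against 0.16% of all probes (0.0874% higher, 0.0729% lower, and 0.284% with no fold minimum), with 0 members and 5612 probes at an unadjusted p under 0.05 and 0 members and 0 probes called by the methods' t-test after adjustment. Groups overlapped for all 10 members in both comparisons, while they did not for 6.87% of all probes under PBS (4.27% with GR iKO lower) and 14.5% under DEX (6.28%). Only the dimmer Ccl7 probe had groups apart under DEX, with a log2 difference of 0.54 (adjusted p = 0.467). The members' median was -0.08 under PBS and 0.33 under DEX, beside 0.00 and 0.02 over all genes.

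Ccl8, encoded near Ccl2 and Ccl7, is a ligand of Ccr8 in mice. Its levels in Flox mice were 0.32, 2.22, 1.32 and 1.35 in PBS 1 to 4 and -0.71, 0.32 and -1.32 in DEX 1, 2 and 4. Levels with GR iKO were 1.63, -0.04 and 1.09 in PBS 2, 3 and 4 and -0.28, 0.66, -0.38 and 0.27 in DEX 1 to 4. Flox DEX 2 lay just above Flox PBS 1, by less than the rounding shows, so the Flox groups overlapped, and GR iKO PBS 3 lay among the DEX arrays. The log2 difference was -1.87 in Flox mice (95% interval -3.00 to -0.74, adjusted p = 0.0746) and -0.83 in GR iKO mice (95% interval -1.95 to 0.30, adjusted p = 0.334). Ccl8 was called in Flox mice without Flox PBS 1 (-2.20) and with a block for replicate numbers (-2.0, adjusted p = 0.0274). The GR iKO value of Ccl8 was -0.46 without GR iKO PBS 2 and -1.29 without GR iKO PBS 3.

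Ccl11, or eotaxin, is the attractant of eosinophils. Its levels in Flox mice were -0.33, -0.21, -0.04 and 0.27 in PBS 1 to 4 and -1.32, -1.06 and -1.18 in DEX 1, 2 and 4. For GR iKO they were 0.66, -0.89 and -0.39 in PBS 2, 3 and 4 and -0.95, -1.24, -1.13 and -0.57 in DEX 1 to 4. The Flox groups did not overlap, and GR iKO PBS 3 lay within the range of the GR iKO DEX arrays. The log2 difference was -1.11 in Flox mice (95% interval -1.76 to -0.45, adjusted p = 0.0692) and -0.76 in GR iKO mice (95% interval -1.42 to -0.11, adjusted p = 0.12). Ccl11 was called in Flox mice without GR iKO PBS 2 (-1.11) or GR iKO PBS 3 (-1.11), arrays that enter only through the spread, and in GR iKO mice without GR iKO PBS 3 (-1.10). Without GR iKO PBS 2 the GR iKO value was -0.33 (adjusted p = 0.373). A filter on dim probes added Ccl8 and Ccl11 to the calls in Flox mice, for 4 of 10 members.

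Ccl3, Ccl4 and Ccl5 attract T cells and macrophages. Ccl3 was well above background on 6 of 14 arrays, which were 2, 1, 2 and 1 arrays of Flox PBS, Flox DEX, GR iKO PBS and GR iKO DEX, with levels from -6.54 to -4.56, and each other member was so on all 14. Ccl4 had levels from -3.99 to -3.54 in Flox PBS and from -4.20 to -4.17 in Flox DEX. With GR iKO its levels overlapped, with GR iKO PBS 2 at -2.70 and the other 6 arrays between -4.64 and -3.87. The log2 difference of Ccl4 was -0.49 in Flox mice (95% interval -1.18 to 0.21, adjusted p = 0.449) and -0.54 in GR iKO mice (95% interval -1.24 to 0.15, adjusted p = 0.301). The GR iKO value was -0.04 without GR iKO PBS 2 (adjusted p = 0.911) and -0.83 without GR iKO PBS 4. Ccl5 had levels from -1.28 to 0.19 in Flox PBS, with PBS 1 lowest, from -1.08 to -0.91 in Flox DEX, from -0.65 to 0.98 in GR iKO PBS and from -1.49 to -0.02 in GR iKO DEX. Its groups overlapped in both genotypes, with log2 differences of -0.71 (95% interval -1.67 to 0.25) in Flox and -0.76 (95% interval -1.72 to 0.20) in GR iKO mice, where Ccl5 had -0.33 without GR iKO PBS 2, -1.15 without GR iKO PBS 3 and -0.47 without GR iKO DEX 3. Ccl3 had -0.35 in both, with -0.68 to -0.01 in Flox mice and -0.71 to 0.00 in GR iKO mice over the fits that left out 1 array.

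Ccl20 is made by gut epithelium, above all over lymphoid follicles, and attracts cells with Ccr6. Its levels in Flox mice were -1.60, -2.73, -1.43 and -0.89 in PBS 1 to 4 and -2.94, -3.01 and -3.42 in DEX 1, 2 and 4. Those of GR iKO were -2.98, -0.56 and -0.90 in PBS 2, 3 and 4 and -1.29, -3.21, -2.66 and -2.81 in DEX 1 to 4. The Flox groups did not overlap, although Flox PBS 2 came near the DEX arrays, while in GR iKO mice PBS 2 was low and DEX 1 was high. The arrays GR iKO PBS 3, GR iKO PBS 4 and GR iKO DEX 1, the highest for Ccl20 in their groups, are those with the highest summed level of B cell markers, whose part in the result was not tested. The log2 difference was -1.46 in Flox mice (95% interval -2.79 to -0.14, adjusted p = 0.213) and -1.01 in GR iKO mice (95% interval -2.34 to 0.31, adjusted p = 0.314). A fit without those 3 arrays leaves GR iKO PBS 2, the lowest of its group for Ccl20, as the only GR iKO PBS array. The GR iKO value was then 0.09. Without GR iKO PBS 2 alone it was -1.76, and without GR iKO PBS 3 alone -0.55.

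Ccl25 and Ccl28, which call lymphocytes with Ccr9 and Ccr10 to mucosa, had narrow ranges. Ccl25 had levels from 0.04 to 0.55 over all groups and Ccl28 from -1.66 to -0.49, with GR iKO PBS 2 lowest for Ccl28. For Ccl25 the 95% interval of the DEX difference was -0.23 to 0.30 in Flox mice and -0.36 to 0.17 in GR iKO mice. The interval of Ccl28 was -0.53 to 0.44 in Flox mice and -0.16 to 0.81 in GR iKO mice. A 2-fold change lies outside these 4 intervals. The dimmer probe of Ccl25 was likewise not called, with log2 differences of -0.07 and -0.24.

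Ccl2 and Ccl7 are neighbours on mouse chromosome 11 in the annotation of GRCm38.p6, followed by Ccl11, the predicted gene Gm38913, Ccl12, Ccl8 and Ccl1. Ccl5, and further on Ccl3 and Ccl4, lie on the same chromosome. Promoters in a RefSeq table (GRCm38.p6, 250 bases before to 50 after a start) were matched by symbol for 5 of 10 members: Ccl3, Ccl8, Ccl20, Ccl25 with 2 starts, and Ccl28. No promoter of Ccl2, Ccl4, Ccl5, Ccl7 or Ccl11 is printed. Of this cluster, Ccl2, Ccl7 and Ccl12 were called lower under DEX by limma. Ccl8 (-1.87 in Flox mice, adjusted p = 0.0746) and Ccl11 were not, and a difference between these genes was not tested. The promoters of Ccl8 and Ccl12, which lie beside each other and near Ccl2 and Ccl7, are given with the motif TATAAA in capitals.
Ccl8, + strand, chr11:82114935-82115234: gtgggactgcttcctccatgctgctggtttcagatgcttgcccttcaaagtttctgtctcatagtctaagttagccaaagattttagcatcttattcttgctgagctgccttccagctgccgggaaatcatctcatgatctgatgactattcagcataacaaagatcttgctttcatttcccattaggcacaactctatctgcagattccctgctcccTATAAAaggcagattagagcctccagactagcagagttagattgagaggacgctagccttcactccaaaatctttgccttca
Ccl12, + strand, chr11:82101595-82101894: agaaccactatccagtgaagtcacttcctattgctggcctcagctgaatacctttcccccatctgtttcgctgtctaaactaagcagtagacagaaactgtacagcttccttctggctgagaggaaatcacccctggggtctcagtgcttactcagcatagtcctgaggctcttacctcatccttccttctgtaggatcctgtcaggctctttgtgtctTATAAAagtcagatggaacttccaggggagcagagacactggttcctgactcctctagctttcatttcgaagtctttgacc

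TATAAA was searched on the gene's strand and begins -32 bases from the start of Ccl8, -31 bases from that of Ccl12 and -16 bases from the second start of Ccl25, and 8.32% of 32851 promoters of this length hold it. The GR palindrome, GNACA and TGTNC with 3 free bases between them, was searched on both strands and is held by 0.475% of them, and none of the promoters of the 5 matched members or of Ccl12 holds these letters. The NF-kB consensus, searched on both strands and held by 4.51%, occurs in that of Ccl20 alone among the 5 members, shown here in capitals because Ccl20 is a member with groups apart in Flox mice. A match is a run of letters and not a measured site.
Ccl20, + strand, chr1:83116516-83116815: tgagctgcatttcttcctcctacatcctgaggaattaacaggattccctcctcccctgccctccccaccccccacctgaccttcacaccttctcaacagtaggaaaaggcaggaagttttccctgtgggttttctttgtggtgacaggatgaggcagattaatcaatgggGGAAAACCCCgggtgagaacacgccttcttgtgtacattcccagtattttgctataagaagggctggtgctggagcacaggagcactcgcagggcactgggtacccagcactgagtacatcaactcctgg

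The other CC ligands gave 10 of 11 listed genes on the array. Of these, 3 of 10 were called lower in Flox mice and 5 of 10 in GR iKO mice, against 0.787% and 0.823% of all probes, with 0 called higher. Their median log2 difference was -0.63 and -0.77 beside 0.04 and 0.04 over all genes. Ccl12, a Ccr2 ligand that lies between Ccl11 and Ccl8, had levels of -1.92, -1.12, -0.56 and -1.57 in Flox PBS 1 to 4 and of -4.32, -4.07 and -3.84 in Flox DEX 1, 2 and 4. Its levels in GR iKO mice were -0.73, -2.02 and -2.53 in PBS 2, 3 and 4 and -3.70, -3.98, -4.30 and -3.29 in DEX 1 to 4. All DEX arrays thus lay below all PBS arrays, as for Ccl2 and Ccl7. Ccl12 was called lower in both, -2.79 with Flox (adjusted p = 0.00656) and -2.06 with GR iKO (adjusted p = 0.0107). Both Ccl12 calls were lost with normexp (-1.0 and -1.10, adjusted p = 0.2 and 0.518), by the methods' t-test after adjustment and without the arrays high in pancreas markers (-2.49 and -2.24, adjusted p = 0.322 and 0.106). In the genotype comparisons and the difference of responses, limma called 0 of 10 other ligands and 0 of 9 receptors, with 2, 2 and 1 ligands and 2, 0 and 1 receptors at an unadjusted p under 0.05.

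Ccl24, a second eotaxin, was called lower in both, -1.82 with Flox (adjusted p = 0.00196) and -1.17 with GR iKO (adjusted p = 0.00596). The Ccl24 calls were lost with normexp (-0.59 and -0.60, adjusted p = 0.2 and 0.752) and without the arrays high in pancreas markers (-1.55 and -1.10, adjusted p = 0.142 and 0.0538), in Flox mice also by the methods' t-test after adjustment, and with GR iKO also without the arrays high in B cell markers (-1.27, adjusted p = 0.11) and with the mean of the Ccl24 probes (-0.94). Its dimmer probe fell by 1.98 in Flox mice and had a log2 difference of -0.70 in GR iKO mice, short of 2-fold. Ccl21a, which guides cells with Ccr7 into lymphoid tissue, was called lower with -1.55 in Flox (adjusted p = 0.0122) and -1.37 in GR iKO colon (adjusted p = 0.00945), calls lost in 2 and 3 of 30 alternatives, with adjusted p up to 0.0966 and 0.134. Ccl17, a ligand of Ccr4, fell by 1.19 in GR iKO mice (adjusted p = 0.0168), a call lost without GR iKO PBS 2 or GR iKO PBS 4, with log2 differences between -1.42 and -0.98 over the fits that left out 1 array. Ccl19, the other ligand of Ccr7, fell by 1.55 in GR iKO mice (adjusted p = 0.0321), a call lost without GR iKO DEX 2, 3 or 4 or GR iKO PBS 3 or 4, with values between -2.15 and -1.13. Over all 30 alternatives the calls of Ccl17 and Ccl19 were lost in 7 and 11, with log2 differences up to -0.52 and -0.54. GR iKO PBS 3 and GR iKO PBS 4 had the highest levels of Ccl19, 0.43 and 0.89, and are the arrays with the highest B cell markers. Ccl22 was not well above background on any array, and Ccl1 was so on 1.

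**Figure D3:**
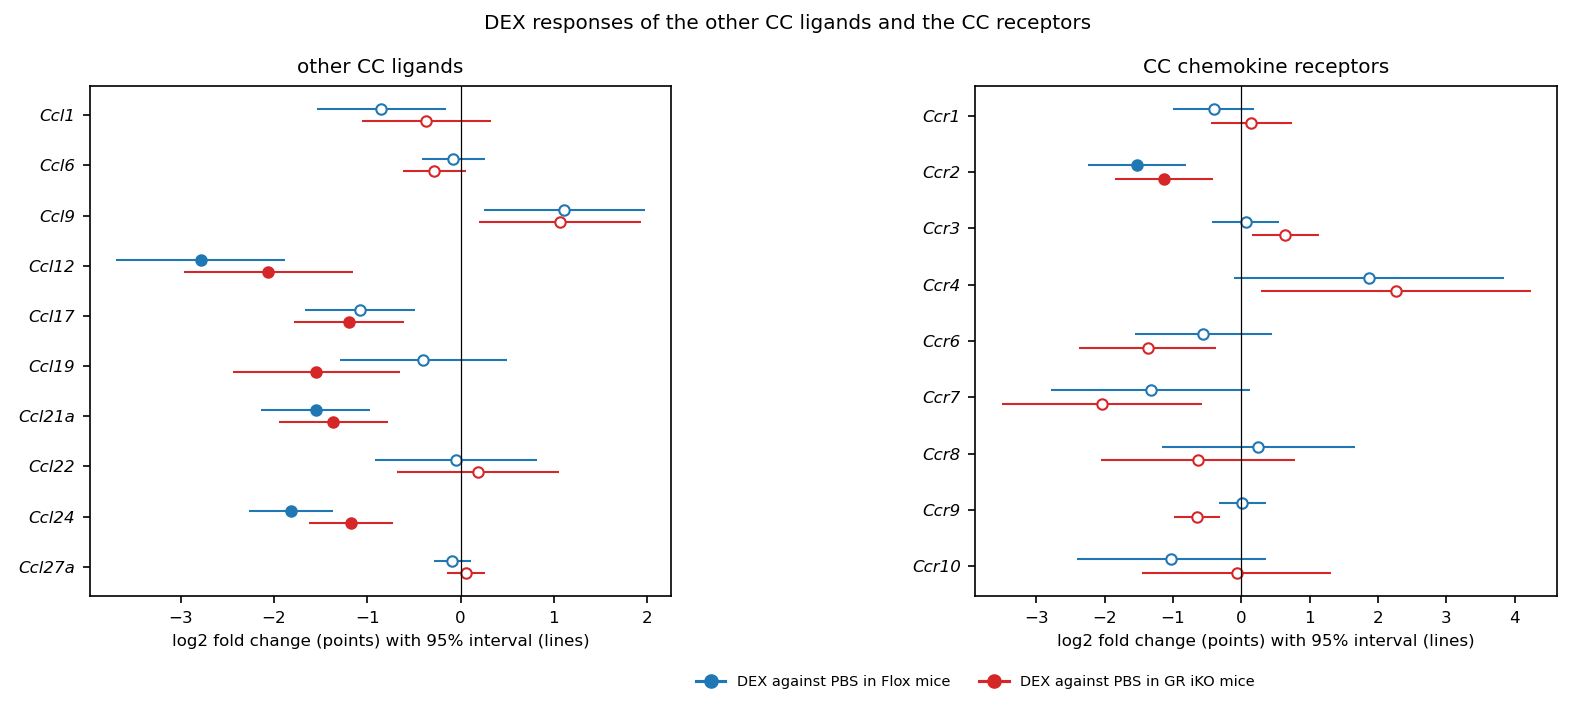
Log2 fold changes of the other CC ligands and of the CC chemokine receptors for DEX against PBS in Flox and in GR iKO mice. Points are estimates, lines are 95% intervals and filled points are called, among them Ccl12, Ccl21a, Ccl24 and Ccr2 in both genotypes.

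Receptors were read through 9 genes. Ccr2, the receptor of Ccl2 and Ccl7, had levels of -2.78, -1.75, -1.48 and -2.45 in Flox PBS 1 to 4 and of -3.86, -3.34 and -3.74 in Flox DEX 1, 2 and 4. Its levels in GR iKO mice were -1.87, -2.42 and -2.06 in PBS 2, 3 and 4 and -2.71, -3.87, -3.31 and -3.11 in DEX 1 to 4. The DEX and PBS arrays did not overlap within either genotype. Ccr2 fell by 1.53 in Flox mice (adjusted p = 0.0298), a call lost without Flox DEX 1, 2 or 4 or Flox PBS 2 or 3, with log2 differences between -1.75 and -1.32. With GR iKO it fell by 1.13 (adjusted p = 0.0445), a call kept in 3 of 14 fits with 1 array left out, those without Flox PBS 1, Flox PBS 3 or GR iKO DEX 1, with values between -1.31 and -0.92. Over all 30 alternatives the Ccr2 call was lost in 10 in Flox mice and in 19 in GR iKO mice. Its log2 differences there went up to -0.30 and -0.60. A dimmer Ccr2 probe, well above background on 5 arrays, was not called in either genotype.

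Ccr3, the receptor of Ccl11 and Ccl24, had log2 differences of 0.06 and 0.64, neither called (adjusted p = 0.904 and 0.084). Its dimmer probe was well above background on 1 of 4 Flox PBS and 3 of 3 Flox DEX arrays. The fitted log2 difference there was 3.26 (adjusted p = 0.0507), against a group mostly near background, so it is not an exact value. Levels were -2.50 and -2.47 in Flox DEX 1 and 2, which are high in pancreas markers, and -5.34 in Flox DEX 4. In GR iKO mice the probe was well above background on 0 of 3 PBS and 2 of 4 DEX arrays. DEX was at least 1.41-fold higher there (adjusted p = 0.126), and neither difference was called. The mean of the Ccr3 probes, which includes that dim one, gave 1.66 in Flox mice. Ccr1 stayed near background throughout. Of the 9 receptors, 1 was called lower in each genotype (Ccr2) and 0 higher, against 0.787% and 0.823% of all probes called lower. The receptors' median was -0.40 and -0.64. Of 5 atypical chemokine receptors, which take up chemokines without signalling through G proteins, limma called 0 by their brightest probes. Among them 5 and 1 had an unadjusted p under 0.05, with medians of -0.51 and -0.29. A dimmer Ackr1 probe was called higher in GR iKO mice (1.21, adjusted p = 0.0042) and was not called in Flox mice (-0.64). Of 15 NF-kB pathway genes on the array, of 16 listed, limma called 0 in either genotype, with 4 and 2 at an unadjusted p under 0.05 and medians of -0.01 and -0.03.

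Over the 14 arrays, the genes most like Ccl2 among 14220 that were well above background on all of them were Ccl7 (Pearson r = 0.979), Gbp4 (0.977) and Fcgr1 (0.977), and those most like Ccl7 were Ccl2 (0.979), Ccl24 (0.964) and Gbp4 (0.963). The arrays share the 4 groups and slides, so the difference between groups enters this likeness. With each group's mean taken out, r was 0.768 for Ccl2 with Ccl7 and 0.929 for Ccl2 with Fcgr1. Among the members, r with Ccl2 was 0.838 for Ccl11, 0.815 for Ccl8, 0.659 for Ccl4, 0.618 for Ccl5, 0.461 for Ccl20, -0.09 for Ccl25 and -0.21 for Ccl28, given as a description. Taking out the group means gave 0.432, 0.583, 0.501, 0.594, -0.514, -0.17 and -0.40 in the same order.

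Markers of macrophages and monocytes, cells that make Ccl2 and Ccl7 and follow them, were read as a list of 12 genes. All 12 genes of that list were on the array and well above background on every array. In both genotypes 2 of 12 were called lower (Lyz2 and Cx3cr1), against 0.787% of all probes in Flox and 0.823% in GR iKO mice. All 12 had log2 differences below 0 in both, with medians of -0.77 and -0.59. Their summed level, with the array's 75th percentile as 1, was 48.1, 71.5, 83.8 and 66.8 in Flox PBS 1 to 4 and 46.0, 54.2 and 38.1 in Flox DEX 1, 2 and 4, with Ly6c2 the brightest gene. For GR iKO the sum was 43.6, 53.5 and 70.3 in PBS 2, 3 and 4 and 51.3, 32.0, 49.9 and 43.7 in DEX 1 to 4. The groups overlapped in this sum, which adds levels before the log and so leans on its brightest genes. The part of these cells in the result was not tested. Of the lists given below, those of T cells, NK cells, B cells, fibroblasts and endothelium also had medians below 0 in both genotypes. Those of eosinophils and epithelium did not. Lyz2 fell by 1.37 in Flox mice, a call kept only without Flox PBS 1, GR iKO DEX 1, GR iKO DEX 3 or a GR iKO PBS array (-1.57 to -1.2), and by 1.26 in GR iKO mice, lost without GR iKO DEX 2, GR iKO DEX 3 or GR iKO PBS 4 (-1.46 to -1.03). Cx3cr1 fell by 1.57 in Flox mice, a call lost without Flox DEX 1 or Flox DEX 2 (-1.76 to -1.40). In GR iKO mice it fell by 1.34, a call lost without GR iKO PBS 4 (-1.66 to -1.14). Over all 30 alternatives the Cx3cr1 call was lost in 6 in Flox mice and in 5 in GR iKO mice. Its log2 differences there went up to -0.24 and -0.07.

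B cell markers (6 genes, Cd79b brightest) had summed levels of 1.04, 1.98, 1.32 and 1.88 in Flox PBS 1 to 4 and of 0.617, 0.92 and 0.626 in Flox DEX 1, 2 and 4. Sums with GR iKO were 0.987, 6.95 and 11.1 in PBS 2, 3 and 4 and 3.87, 1.2, 1.48 and 1.07 in DEX 1 to 4. GR iKO PBS 3, GR iKO PBS 4 and GR iKO DEX 1 thus stood above all other arrays. All 6 genes had log2 differences below 0 in both genotypes, with medians of -0.97 in Flox and -1.64 in GR iKO mice. An unadjusted p under 0.05 in limma was reached by 0 and 5 of them. Only Cd22 was called, lower in GR iKO mice (-2.17), kept only without GR iKO DEX 1 or GR iKO PBS 2 (-3.08 to -1.54). Over all 30 alternatives the Cd22 call was lost in 20, with values up to -0.76. Without the 3 arrays high in B cell markers, a setting chosen after seeing the data, 1 GR iKO PBS array is left. That array, GR iKO PBS 2, is assumed to vary like the others. Ccl7 was then still called in GR iKO mice (-3.03, adjusted p = 0.0258), Ccl2 was not (-2.86, adjusted p = 0.0613), and Ccl4 and Ccl11 were called lower, with GR iKO PBS 2 the highest of all 14 arrays for both (-2.70 and 0.66), so that these 2 calls rest on that array.

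Exocrine pancreas markers (9 genes, Clps brightest) had summed levels of 21.2, 644, 35.0 and 28.5 in Flox PBS 1 to 4 and of 1903, 2318 and 21.8 in Flox DEX 1, 2 and 4. Sums with GR iKO were 11.1, 22.9 and 22.6 in PBS 2, 3 and 4 and 37.6, 260, 53.5 and 149 in DEX 1 to 4. Flox PBS 2, Flox DEX 1, Flox DEX 2, GR iKO DEX 2 and GR iKO DEX 4 thus carried pancreas transcripts above 100, and 0 of 9 genes were called in either genotype by limma, which treats these arrays as replicates, with 1 gene at an unadjusted p under 0.05 in each and medians of 5.11 and 4.49. Without the 5 arrays, also a setting chosen after seeing the data, 1 Flox DEX array is left and is assumed to vary like the others. The log2 differences in Flox mice were then -2.78 for Ccl2 (adjusted p = 0.206) and -3.06 for Ccl7 (adjusted p = 0.11), neither called, and in GR iKO mice -2.27 for Ccl2 (adjusted p = 0.0666) and -1.99 for Ccl7 (adjusted p = 0.0478), of which Ccl7 was called.

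**Figure D4:**
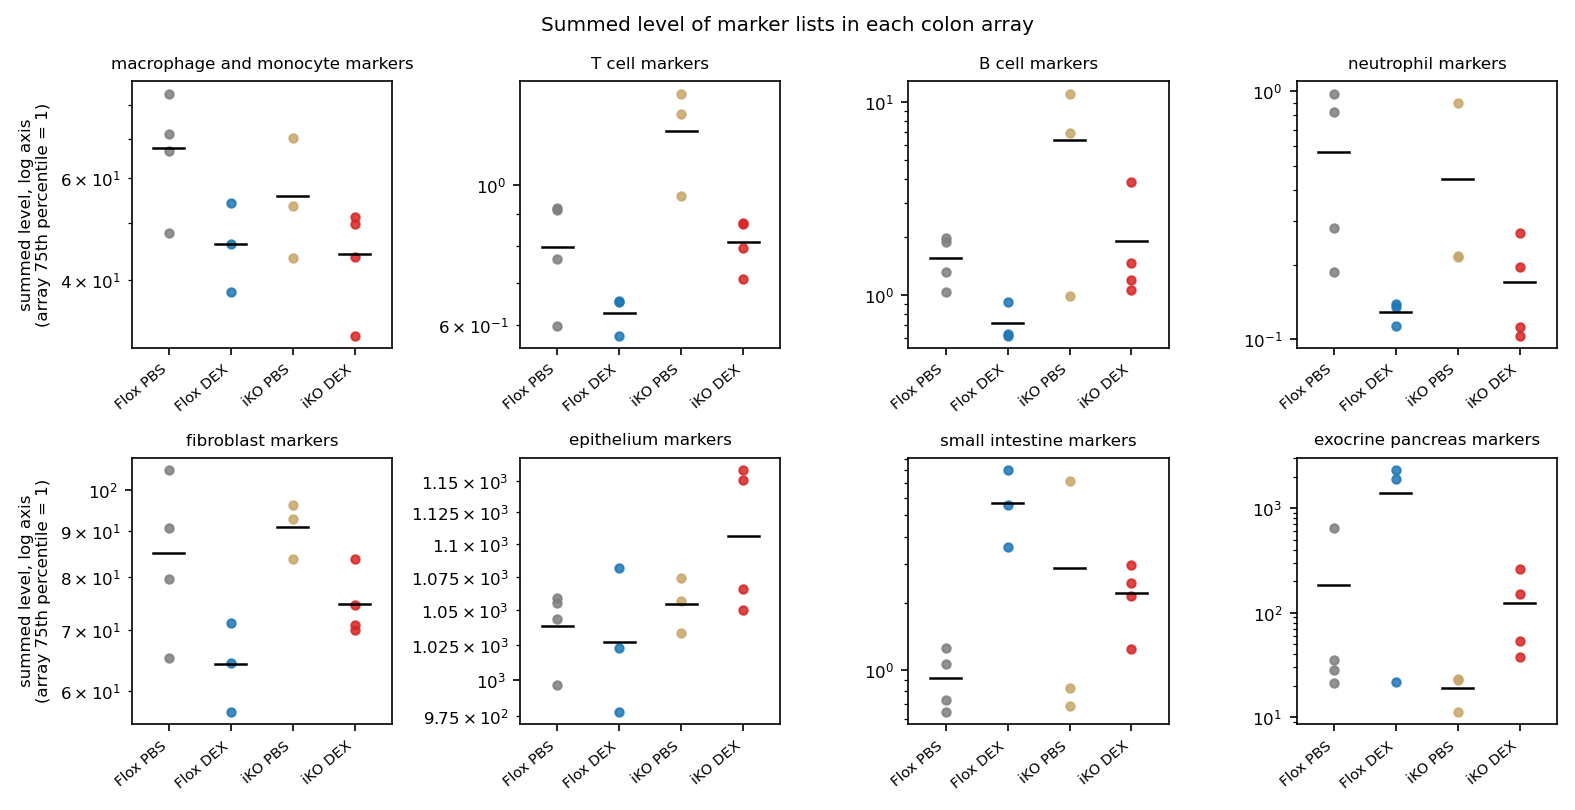
Summed level of 8 marker lists in each of 14 colon arrays, in units of the array's 75th percentile, on log axes that differ between panels. Points are arrays and bars are group means, and exocrine pancreas markers are above 100 in Flox PBS 2, Flox DEX 1, Flox DEX 2, GR iKO DEX 2 and GR iKO DEX 4.

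The tissue label was checked through 9 epithelium markers, all well above background on all arrays, with Krt8 brightest and summed levels between 977 and 1159, and 6 colon markers, with Muc2 brightest. In limma 0 genes were called of either list, with 1 and 3 epithelium and 2 and 1 colon markers at an unadjusted p under 0.05. The summed level of the 4 colon markers measured on all arrays, without Aqp8 and Muc2, which have outlier spots, lay between 106 and 339. Hoxb13, a marker of the distal colon, had levels of -3.90 in GR iKO PBS 2 and -0.69 in GR iKO DEX 2, and between 1.72 and 4.61 on the other 12 arrays. Small intestine markers (8 genes, Alpi brightest) had summed levels of 0.643 to 1.25 in Flox PBS, 3.58 to 8.01 in Flox DEX, 0.83, 0.686 and 7.18 in GR iKO PBS 3, 4 and 2, and 1.24 to 2.98 in GR iKO DEX. Lct was called higher in both genotypes, and Slc10a2 in Flox mice by 5.79, lost without Flox DEX 1, 2 or 4 or Flox PBS 2, 3 or 4 (5.43 to 6.33). Of the 8 genes, 5 had log2 differences above 0 and 3 below 0 in each genotype, with medians of 0.72 and 0.15. GR iKO PBS 2, which has little Hoxb13 and the most small intestine transcripts of the PBS arrays, had the highest Ccl11 of all arrays and the lowest Ccl28, and the part of its position along the gut was not tested.

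The remaining lists were T cells (8 genes, Cd5 brightest), NK and cytotoxic cells (6, Nkg7), eosinophils (5 of 6 listed, Siglecf), neutrophils (5 of 6, S100a9), fibroblasts (6, Dcn), endothelium (6, Emcn), and follicle epithelium and Paneth cells (5 of 6, Lyz1). Klrk1 of the NK list and Mmp8 of the neutrophil list stayed near background on all 14 arrays. In Flox mice Kdr of the endothelial list was lower by -1.0, lost without Flox DEX 2, Flox DEX 4 or Flox PBS 2 (-1.06 to -0.90), and Tnfaip2 of the follicle list by -1.15, lost without Flox DEX 1 or Flox DEX 2 (-1.33 to -1.04). The other way, above 0, lay 1 of 6 endothelial genes (0.35) and 2 of 5 follicle and Paneth genes (up to 4.49) there, none of them called, and these lists had medians of -0.48 and -0.15. In limma 0 genes were called of the T cell, NK, eosinophil, neutrophil, B cell and fibroblast lists in Flox mice, with 6, 4, 2, 2, 0 and 3 at an unadjusted p under 0.05, and 0 of the NK, eosinophil and fibroblast lists in GR iKO mice, with 1, 2 and 2. Medians in Flox mice were -0.73 for T cells, -1.19 for NK cells, -0.07 for eosinophils, -1.06 for neutrophils and -0.58 for fibroblasts. In GR iKO mice they were -0.78 for NK cells, 0.33 for eosinophils and -0.31 for fibroblasts. The calls with GR iKO, all lower, were Cd3g and Cd8a of the T cell list, S100a9, Kdr, Tek and Lyz1. Above 0, and not called, were 2 of 8 T cell, 2 of 5 neutrophil, 2 of 6 endothelial and 2 of 5 follicle and Paneth genes (up to 0.86, 1.53, 0.25 and 1.37), in lists with medians of -0.80, 0.00, -0.26 and -0.48. Cd3g (-1.17) was lost without GR iKO DEX 2, GR iKO DEX 3, GR iKO PBS 2 or GR iKO PBS 4 (-1.55 to -0.91), and Cd8a (-1.81) without GR iKO PBS 2 (-2.05 to -1.52). S100a9 (-2.67) was kept only without Flox PBS 2, Flox PBS 3 or GR iKO DEX 2 (-3.20 to -1.85). Kdr (-1.05) was lost without GR iKO DEX 2 or GR iKO PBS 3 (-1.19 to -0.91), Tek (-1.23) without GR iKO DEX 2, GR iKO PBS 2 or GR iKO PBS 3 (-1.43 to -1.09), and Lyz1 (-1.05) without GR iKO DEX 2, 3 or 4 or GR iKO PBS 2 or 4 (-1.28 to -0.86). Summed levels of T cell markers were 0.599 to 0.92 in Flox PBS, 0.578 to 0.654 in Flox DEX, 0.958 to 1.39 in GR iKO PBS and 0.71 to 0.87 in GR iKO DEX, and those of eosinophil markers 0.306 to 0.594, 0.255 to 0.31, 0.287 to 0.428 and 0.37 to 0.469. In the same order of groups the sums were 0.209 to 0.453, 0.177 to 0.192, 0.256 to 0.995 and 0.183 to 0.316 for NK markers and 0.187 to 0.979, 0.113 to 0.139, 0.214 to 0.896 and 0.103 to 0.268 for neutrophil markers. Fibroblast sums were 65.1 to 105, 56.8 to 71.3, 83.9 to 96.1 and 70.0 to 83.8, endothelial sums 5.42 to 6.53, 5.11 to 5.88, 5.25 to 5.90 and 5.03 to 5.79, and follicle and Paneth sums 8.51 to 14.1, 5.01 to 29.7, 12.2 to 18.5 and 5.46 to 11.5. The part of these cells in the levels of the chemokines was not tested. Over all 30 alternatives the GR iKO calls of Cd3g, Cd8a, S100a9 and Tek were lost in 9, 6, 18 and 8. Their log2 differences went up to -0.49, -0.57, -1.35 and -0.55 in that order. In Flox mice the calls of Kdr and Tnfaip2 were each lost in 7, with values up to -0.65 and -0.83.

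The position of a probe on the array bore on the comparison in GR iKO mice. Of 1724 probes called higher under DEX there, 1395 lay from grid row 355 of 532 on, a region of 13577 of the 41174 probes, and leaving that region out gave 424 called probes in place of 2063. Ccl2 and the dimmer probe of Ccl7, which lie elsewhere, were then still called, with log2 differences of -2.30 (adjusted p = 0.0113) and -1.92 (adjusted p = 0.00964). The only probes of Ccl3 and Ccl20 lie in that region, so these members had no value in that fit. The share of called probes that were higher in GR iKO mice was 83.6%, against 62.9% in the authors' log2 table, 63.1% with quantile normalization, 70.5% with median scaling and 54.6% with quantile normalization within 3 regions of the array and 95.6% of 45 probes with normexp. In Flox mice that share was 49.8%, against 38.0% with median scaling and 39.8% with normalization within regions and 75.9% of 58 probes with normexp. Ccl2 and Ccl7 were called lower in both genotypes under each of these but normexp.

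These values come from 3 or 4 arrays a group, at 1 dose and 1 time after injection, in whole colon. Each group has its own slide, and arrays differ in pancreas, B cell and small intestine transcripts within and between groups. The calls of Ccl2 and Ccl7 were lost with the normexp alternative, which changed the background correction, the spot signal read and the offset at once, and the test of the difference between genotypes has wide intervals. Ccl3 is near background. Probes were named through accessions, and 12951 probes have no gene name here. Protein was not measured in these data, and whether DEX acts on the chemokine genes directly was not tested.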

How the data were processed

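Total RNA of 14 mouse colons was hybridised to 1-colour Agilent arrays, and the submitters' processing notes credit Agilent Feature Extraction and Partek 6.6. The deposited scanner files give each spot's processed signal as an intensity, background-subtracted by Feature Extraction. The authors' table holds log2 values that were quantile normalized (sorted columns differ by at most 0.0024), and it was used as an alternative. Here log2 of the processed signal minus each array's 75th percentile was taken, control and outlier spots were left out and repeat spots averaged. Probes were named through RefSeq accessions (28223 of 41174). A gene is its probe with the highest mean signal. Group means were fitted with limma 3.58.1 in R 4.3.3 (lmFit, eBayes), with Benjamini-Hochberg adjustment over all probes, and the pipeline was tested on simulated data. Tables and figures used Python 3.11.15 with pandas 2.3.3, numpy 2.4.6 and matplotlib 3.10.9. The normexp alternative (offset 50) used the median spot signal, since the files hold no mean signal. Named are Nr3c1, all members, Fkbp5 and Tsc22d3, up to 6 called genes of each pathway list, the receptors of called members, each marker list's brightest gene and up to 3 called ones, and the 3 genes most like each called member. Sgk1, Pdk4, Hoxb13 and a second Ackr1 probe were named after their values were seen. The members and lists were chosen with earlier results of these data known. A further gene of these lists is not reported here.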

Additional observations from a re-analysis of the deposited data

Results flagged for a closer look

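A sample far from the others of its group, by the gap to its nearest neighbour as a share of the group's range, was found in 4 of 97 groups of 4 arrays looked at, where chance alone picks about 1 in 20. Ccl3 was at -5.07 in GR iKO DEX 4, above the other arrays of that group (-5.85 to -5.73), on a probe near background. Tsc22d3 was at 1.22 in Flox PBS 3, below the others (1.65 to 1.70). Nkg7 was at -2.88 in Flox PBS 1, below the others (-2.13 to -2.0). Kdr was at -0.10 in Flox PBS 2, above the others (-0.53 to -0.49). The causes were not tested.

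Responses to DEX that differed between genotypes by the limma test of the difference were called for 91 probes, and 3 of their genes are on the lists read here, none of them a member. Fkbp5 had a difference of -2.71 (SE 0.47, adjusted p = 0.0436), from a log2 change of 3.65 in Flox and 0.94 in GR iKO mice. Sgk1, chosen after its values were seen and a kinase gene induced by glucocorticoids, had -2.56 (SE 0.45, adjusted p = 0.0436), from 3.22 in Flox and 0.66 in GR iKO mice. Each of these calls was kept in 3 of 14 fits with 1 array left out, that of Sgk1 without Flox PBS 1, Flox PBS 2 or GR iKO PBS 2, with values between -2.86 and -2.34, and that of Fkbp5 without Flox DEX 4, Flox PBS 1 or GR iKO PBS 3, with values between -2.92 and -2.45. Over all 27 alternatives the calls were lost in 18 for Sgk1 and 19 for Fkbp5. The dimmer probe of Ackr1, also chosen after its values were seen and an atypical receptor that binds Ccl2 and Ccl7 on vessel walls, had 1.84 (SE 0.28, adjusted p = 0.0265), from -0.64 in Flox and 1.21 in GR iKO mice. That probe lies from grid row 355 of 532 on, where most probes called higher in GR iKO mice lie, and the brighter Ackr1 probe had 0.59 (adjusted p = 0.136). The dimmer probe was not refitted under the alternatives.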

How the results depend on the processing

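Of 1455 values of the 10 members over 50 results and all alternatives, 1355 kept their direction and side of the threshold, 10 were weaker, 14 stronger and 76 changed sign, and of 2734 values of all named genes over 93 results 2356 kept them, 274 were weaker, 16 stronger and 88 changed sign. No value that changed sign was called. Leaving out arrays with high pancreas markers or with high B cell markers was chosen after seeing the data and leaves 1 array in a group, which is assumed to vary like the others. The difference of responses has no value by the methods' t-test or from the compared groups alone, and a slide block was not possible. The second Ackr1 probe was not refitted. Unless an alternative tests fewer probes or arrays, the cause was not tested.

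Ccl2 in Flox mice ranged from -3.47 to -1.19 over 30 alternatives (27 kept the call) and in GR iKO mice from -2.86 to -1.25 (27 kept). Ccl7 ranged from -3.82 to -1.16 (27 kept) and from -3.03 to -1.12 (29 kept). Ccl8 in Flox mice ranged from -2.32 to -1.50 and was called in 4 of 30, and Ccl11 ranged from -1.19 to -0.79 and was called in 6. The BH-adjusted t-test gave Ccl2 and Ccl7 in Flox mice adjusted p = 0.0784 and 0.054, beside ranges of 0.000627 to 0.206 and 0.000128 to 0.2.

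Members called for DEX in Flox mice (2 by limma) were 0 with normexp, 4 with the filter on dim probes, 3 with the replicate block (Ccl8 added), 3 from the compared groups alone and 3 with B-cell-high arrays out (Ccl11 added in each), 5 by the methods' unadjusted t-test, 0 by it after Benjamini-Hochberg adjustment and 0 with pancreas-high arrays out, and 2 to 3 with 1 array left out. Probes called there (646) were 58 with normexp, 1304 with no fold minimum, 1467 by the unadjusted t-test, 0 by the adjusted one, 398 with the replicate block and 31 with pancreas-high arrays out, and 215 to 840 with 1 array left out, with 215 without Flox DEX 1, 388 without Flox DEX 2, 355 without Flox PBS 3 and 399 without Flox PBS 4.

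For DEX in GR iKO mice, members called (2) were 0 with normexp, 1 (Ccl7) with pancreas-high and 3 (Ccl4, Ccl7 and Ccl11) with B-cell-high arrays out, and 2 to 3 with 1 array left out. Probes called (2063) were 45 with normexp, 4808 with no fold minimum, 705 by the adjusted t-test, 424 without the end region of the array, 778 with pancreas-high and 437 with B-cell-high arrays out, and 957 genes with the mean of a gene's probes, and 1436 to 2365 with 1 array left out.

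For genotype under PBS, probes called (55) were 2 with normexp, 17 from the compared groups alone, 703 by the unadjusted and 0 by the adjusted t-test, 24 with the replicate block, 21 without the end region, 527 with B-cell-high arrays out and 21 genes with the mean of probes. With 1 array left out they were 22 to 183: 159 without Flox DEX 4, 86 without Flox PBS 2, 22 without Flox PBS 3, 25 without Flox PBS 4, 36 without GR iKO DEX 3 and 183 without GR iKO PBS 2. Under DEX, probes called (66) were 6 with normexp, 18 from the compared groups alone, 117 with no fold minimum, 658 by the unadjusted and 0 by the adjusted t-test, 26 with the replicate block, 39 without the end region and 29 with B-cell-high arrays out. With 1 array left out they were 18 to 141: 18 without Flox DEX 1, 33 without Flox DEX 2, 141 without Flox DEX 4, 24 without GR iKO DEX 1, 39 without GR iKO DEX 2 and 36 without GR iKO DEX 4.

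For the difference of responses, probes called (91) were 56 with the authors' table, 5 with normexp, 58 with quantile normalization, 166 with the dim-probe filter, 40 with the replicate block, 7 without the end region, 149 with normalization within regions, 204 with pancreas-high and 165 with B-cell-high arrays out. With 1 array left out they were 36 to 212: 47 without Flox DEX 1, 165 without Flox DEX 4, 146 without Flox PBS 2, 42 without Flox PBS 3, 39 without Flox PBS 4, 38 without GR iKO DEX 1, 36 without GR iKO DEX 2, 47 without GR iKO DEX 3, 212 without GR iKO PBS 2 and 174 without GR iKO PBS 3. Members called were 0 in these 3 comparisons in all 14 such fits.

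Values that changed sign follow by alternative, for DEX in Flox mice (A), DEX in GR iKO mice (B), genotype under PBS (C) or DEX (D) and the difference of responses (E). With normexp, where the median of all probes moved to 0.56, 0.18, -0.10, -0.45 and -0.36 in A to E, they were Ccl3 0.69, Ccl4 0.46, Ccl28 0.020 and Ccr1 0.75 in A, Ccl3 0.18 in B, Ccl3 -0.15 in C, Ccl2 -0.53, Ccl3 -0.66, Ccl7 -0.58, Ccl11 -0.016 and Ccl20 -0.014 in D, Ccl2 -0.059, Ccl3 -0.51 and Ccl20 -0.068 in E. The authors' table gave Ccr3 -0.035 in A, Ccr1 -0.12 in B, Ccl4 0.021 in C, Ccl3 -0.22 in E. Quantile normalization gave Ccr3 -0.035 in A, Ccr1 -0.13 in B, Ccl4 0.022 in C, Ccl3 -0.22 in E. Normalization within regions gave Ccr1 -0.068 in B, Ccl4 0.019 in C, Ccl4 0.017 in D, Ccl3 -0.65 in E. Median scaling gave Ccl25 -0.042 and Ccr3 -0.016 in A, Ccr1 -0.0025 in B, Ccl3 -0.069 in E. The mean of a gene's probes gave Ccl25 -0.018 in A, Ccl25 -0.029 in D. Keeping outlier spots gave Ccl3 -0.0032 in E.

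With B-cell-high arrays out they were Ccl20 0.088 in B, Ccl2 0.022, Ccl4 0.99, Ccl8 0.33, Ccl11 0.74 and Ccl20 -1.32 in C, Ccl3 -0.67 and Ccl11 -0.53 in E. With pancreas-high arrays out they were Ccl3 0.023 and Ccr3 -0.088 in A, Ccl20 -0.18 in C, Ccl3 -0.43, Ccl5 -0.12 and Ccl28 0.47 in D, Ccl3 -0.55 and Tsc22d3 0.067 in E. The replicate block gave Ccl28 0.019 and Ccr3 -0.056 in A, Ccl4 0.00024 in C, Ccl4 0.00043 in D, Ccl4 0.00019 and Ccl5 0.19 in E. Replicate numbers do not pair the arrays: correlations of deviations from group means had a median of 0.0408 over 18 pairs with the same number (-0.247 to 0.314, with 8 over 0.1) and -0.0156 over 55 others.

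Leaving out 1 array at a time changed the sign of Ccl25 (-0.034 to 0.092), Ccl28 (-0.15 to 0.10) and Ccr3 (-0.047 to 0.20) in A, Ccl3 (-0.71 to 0.0023) in B, Ccl4 (-0.53 to 0.27), Ccl5 (-0.015 to 0.80), Ccl8 (-0.78 to 0.055), Ccl11 (-0.57 to 0.21) and Ccl20 (-0.28 to 0.93) in C, Ccl4 (-0.20 to 0.051) and Ccl28 (-0.19 to 0.054) in D, Ccl3 (-0.36 to 0.35), Ccl4 (-0.35 to 0.45), Ccl5 (-0.44 to 0.38) and Ccl20 (-0.30 to 0.91) in E.

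The share of called probes that were higher moved by over 10 points in further comparisons. It was 49.1% for genotype under PBS, against 66.7% with the authors' table, 68.4% with quantile normalization, 90.5% of 21 without the end region, 16.0% of 50 with pancreas-high arrays out and 66.4% of 527 with B-cell-high ones out, 54.5% under DEX, against 43.0%, 42.2%, 44.1% with median scaling, 35.1% within regions, 38.5% of 39 without the end region and 43.3% with pancreas-high arrays out, and 82.4% for the difference of responses, against 69.6%, 70.7%, 57.7% within regions, 28.6% of 7 without the end region and 38.2% of 165 with B-cell-high arrays out. With normexp these shares were 100%, 16.7% and 60.0%, of 2, 6 and 5 probes. From the compared groups alone they were 35.3% under PBS and 33.3% under DEX, and by the unadjusted t-test 32.0% and 69.1%. For DEX the share was 93.5% of 31 probes in Flox mice (49.8%) with pancreas-high arrays out, and in GR iKO mice (83.6%) it was 69.8% with no fold minimum, 55.2% without the end region and 52.2% with B-cell-high arrays out. With 1 array left out the share was 39.8% to 62.8% for DEX in Flox mice and 22.6% to 56.2% for genotype under PBS. It was then 24.1% to 54.5% for genotype under DEX and 65.5% to 89.1% for the difference of responses. Signal over background limits Ccl3, which was well above it on 6 of 14 arrays.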
